A study of Mus musculus with 4 samples.

Results

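The cytosolic ribosomal protein genes were followed across 4 arrays of cultured mouse helper T cells. Members were all probe sets for which the platform annotation gives a single symbol that is Rpl or Rps followed by a digit, or Rplp0, Rplp1, Rplp2 or Rpsa, without ribosomal S6 kinases and without symbols marked as pseudogenes. The rule found 106 probe sets of 50 genes among 34945 probe sets of 18193 genes with a single symbol. Of the probe sets 48 carry a large subunit symbol (26 genes) and 58 a small subunit symbol (24 genes). One gene, Rps19bp1, encodes a protein that binds Rps19 and is not itself a ribosomal subunit. RefSeq marks Rps4l as a transcribed pseudogene.

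The cytosolic ribosome joins a small subunit, which reads the messenger RNA, to a large subunit, which forms the peptide bonds. Each ribosome holds close to 1 copy of nearly all of its proteins, so their genes are usually expressed together and strongly. Activated T cells grow before they divide and make many ribosomes while they do so. Most ribosomal protein messenger RNAs begin with a short pyrimidine tract, the TOP sequence, through which the kinase mTOR controls their translation. An array measures the RNA, not that translation.

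Th1 wild type cells (C57BL/6J) and Th1 STAT4-deficient cells (C57BL6-STAT4<tm1>) were grown with interleukin-12 and anti-interleukin-4. Th2 wild type cells (C57BL/6J) and Th2 STAT6-deficient cells (B6.129S2©-STAT6<tm1Gru>/J) were grown with interleukin-4 and anti-interferon gamma. All 4 cultures began as sorted naive CD4+ cells of spleen and lymph nodes, were activated through CD3 and CD28 for 3 days, kept in interleukin-2 with their polarizing cytokine for 4 days, and restimulated for 2 h before RNA was taken. The labels give neither the age of the mice nor whether they were pooled. Each group had 1 array, so the differences have no replicate check, no test and no p-value. The number of arrays limits the precision.

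The values are log2 signals from RMA (robust multi-array average, which corrects background and summarizes the probes of a probe set). A probe set was called higher or lower where 2 arrays differed by at least 1 log2 unit (2-fold) and the brighter one reached 5.82, the median of all values. Signals of different probe sets are not compared with each other, since they depend on the probes. Where 4 values follow each other, they are those of wild type Th1, Th1 without STAT4, wild type Th2 and Th2 without STAT6. The Stat4 probe set read 11.45 in Th1 wild type and 9.20 in Th1 STAT4-deficient cells, whereas the Stat6 probe sets read 10.93 and 8.93 in Th2 wild type and 10.92 and 8.40 in Th2 STAT6-deficient cells. Whether these probes lie in the deleted parts is not known, so they may check nothing. Of 8 T cell markers, 6 were measured and read between 9.68 and 13.87 on the 4 arrays. Of 19 markers of other cell types, 15 were measured, and 3 to 7 of them reached the level minimum on an array. The sum of the signals of these 15 was 9.85 with and 9.76 without STAT4 in Th1 cells, and 10.67 with and 9.36 without STAT6 in Th2 cells (log2). The mast cell gene Cpa3 (8.64), the CD8 gene Cd8b1 (8.54) and the macrophage gene Adgre1 (8.26) were each highest in wild type Th2 cells. Other markers of these cells were not: the myeloid gene Lyz2 was lowest there (4.88, against 5.27 to 6.45 elsewhere), Csf1r ran from 7.03 to 7.20 and the CD8 gene Cd8a from 5.80 to 6.16 over the 4 arrays. In such bulk RNA, fewer cells of a type and less RNA per cell cannot be told apart.

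The median over the 106 probe sets was 13.81 with and 13.53 without STAT4 in Th1 cells, and 13.06 with and 13.77 without STAT6 in Th2 cells. Of the members, 67 had a mean at or above 12 and 59 at or above 13, while 9 had a mean below the level minimum. For 24 of the 50 genes, each taken by its probe set with the highest mean, the 4 arrays lay within 0.5 log2 units. Across all 34945 probe sets the Th2 wild type array was the lowest of the 4 for 21.8% and the Th1 STAT4-deficient array for 15.8%. Among the members these shares were 46.2% (49 probe sets) and 39.6% (42 probe sets). The Th1 wild type array was the highest for 42.5% of the members, against 18.3% of all probe sets, and the STAT6-deficient array for 35.8% against 16.9%. The order of the member medians depended on the scaling of the arrays. Th2 wild type was the lowest as deposited and under all 4 other scalings. Th1 wild type was the highest only as deposited, and Th1 without STAT4 was the highest after quantile normalization and cyclic loess.

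**Figure D1:**
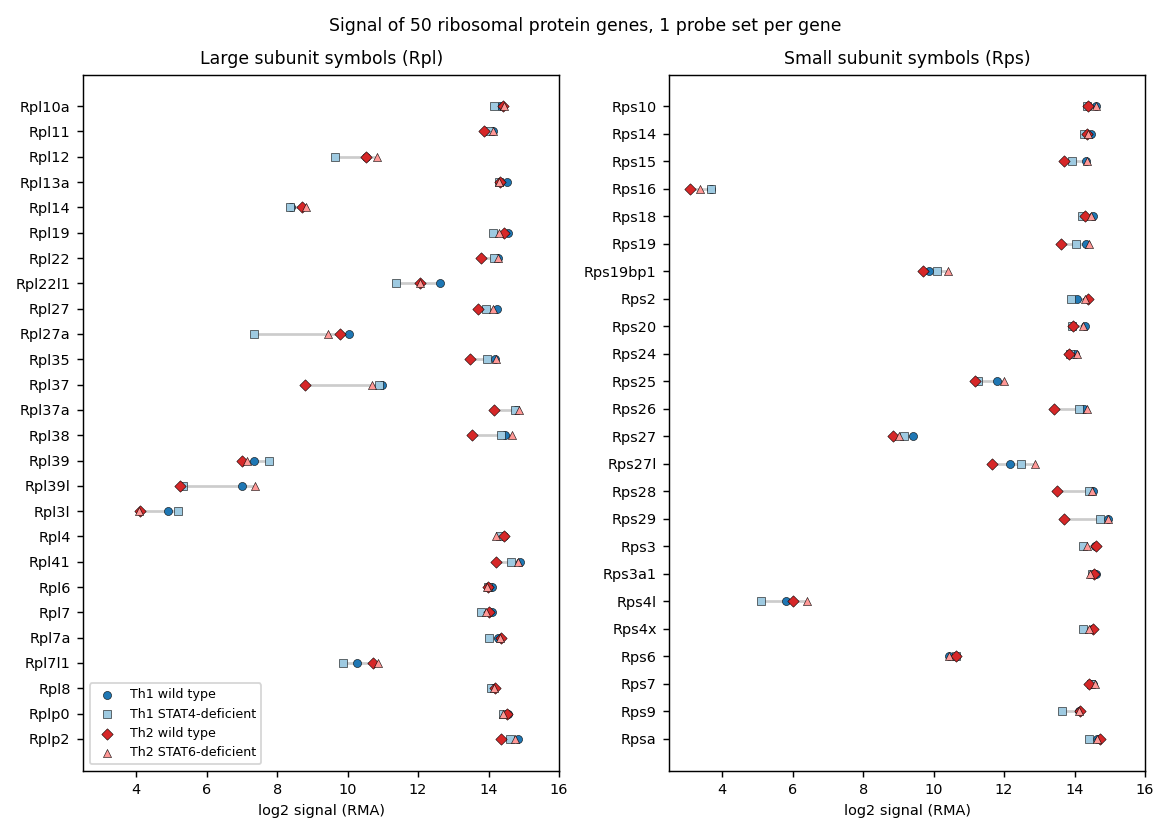
Log2 signal (horizontal axis) of the 50 member genes, each by its probe set with the highest mean, on the 4 arrays. Each symbol is 1 array, and a grey line joins the lowest and highest array of a gene. In 24 genes the 4 symbols lie within 0.5 log2 units, and in others, among them Rpl37, Rpl38, Rps26, Rps28 and Rps29, the Th2 wild type array stands to the left of the other 3.

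The level minimum was not reached on any of the arrays by 4 members, which are the single probe sets of Rpl3l and Rps16 and 1 probe set each of Rpl27a and Rpsa. The Rps16 probe set read from 3.08 to 3.68. A dim member is not a silent gene. The other Rpsa probe set read from 14.40 to 14.71, and Rps18 had probe sets with means from 5.67 to 14.37. Rpl3l encodes a variant of the large subunit protein Rpl3 that is known from skeletal and heart muscle. It read 4.91 with and 5.19 without STAT4 in Th1 cells, and 4.10 with and 4.09 without STAT6 in Th2 cells.

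Without STAT6, Th2 cells had higher signal for 12 member probe sets and lower signal for none, of 100 at the level minimum. Among all probe sets 7.58% were higher and 20.4% lower. The median member difference was 0.30, against −0.18 over all probe sets with a single symbol. At a 1.5-fold limit 34 members were higher and 3 lower, or 34.0% and 3.0%, against 14.6% and 35.7% of all probe sets (50.3% in either direction). Members with differences above 0 numbered 75 of 106. Both subunits were involved, with 5 large subunit and 7 small subunit probe sets higher and medians of 0.22 and 0.30. The small subunit calls came from Rps27l, Rps28 and Rps29 alone, each with several called probe sets. Those of the large subunit came from Rpl27, Rpl35, Rpl37, Rpl38 and Rpl39l. Without the variants and Rps19bp1, 8 of 90 probe sets were called. Of the 12 calls 8 held under all 4 other scalings of the arrays. Among the 35 probe sets whose names carry no suffix, 30 reached the level minimum and 1 was called.

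The large subunit gene Rpl37, whose protein binds zinc, had a single probe set, which read 10.98 with and 10.90 without STAT4 in Th1 cells, and 8.78 with and 10.70 without STAT6 in Th2 cells. Th2 wild type was the low array, and the other 3 lay within 0.3 log2 units of each other. Its signal was 3.79-fold higher without STAT6. Rpl38, a large subunit gene known in mice for its part in translating Hox messenger RNAs, read 14.46, 14.36, 13.53 and 14.66. Again the Th2 wild type value stood below the others, with a STAT6 difference of 1.13. For Rpl27 the difference ran from 0.41 to 1.07 over 3 probe sets, and for Rpl35, whose protein lies near the exit of the peptide tunnel, from 0.64 to 1.03 over 6. Only 1 probe set of each of these passed the 2-fold limit.

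Among the small subunit genes, Rps28 and Rps29 differed in the same way. The largest difference of Rps28 came from a probe set that read 14.45 with and 14.32 without STAT4 in Th1 cells, and 13.18 with and 14.49 without STAT6 in Th2 cells. The STAT6 difference there was 1.31, and the other Rps28 probe sets differed by 1.01 and 0.98, both near the 2-fold limit. Rps29, another zinc-binding protein, read 14.94, 14.73, 13.69 and 14.94 on its brightest probe set, a 2.37-fold difference, while its other probe sets differed by 1.05 and 0.71. Rps26 (0.94), Rps19 (0.79) and Rps25 (0.83) were under the limit. RPS19 and RPS26 are known in humans as genes of Diamond-Blackfan anaemia.

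Many members of both subunits differed little without STAT6. Rplp0, which anchors the stalk that recruits translation factors, read 14.55 with and 14.40 without STAT4 in Th1 cells, and 14.53 with and 14.40 without STAT6 in Th2 cells. Larger differences came from its stalk partner Rplp2 (0.41) and from the brightest probe set of Rpl41, the smallest ribosomal protein (0.63, past 1.5-fold). The 4 Rpl41 probe sets ran from 0.11 to 0.63. The large subunit genes Rpl4 (−0.22), Rpl6 (−0.04), Rpl7a (−0.02) and Rpl8 (−0.03) and the small subunit genes Rps2 (−0.09), Rps3a1 (−0.10) and Rpsa (−0.07 on its bright probe set) lay near wild type. The members at the low end were the dimmest Rpl13a probe set (−0.68), both dim Rps20 probe sets (−0.61 and −0.54) and 1 of Rps3 (−0.59). The members thus spread in the STAT6 comparison from −0.68 to 2.12.

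**Figure D2:**
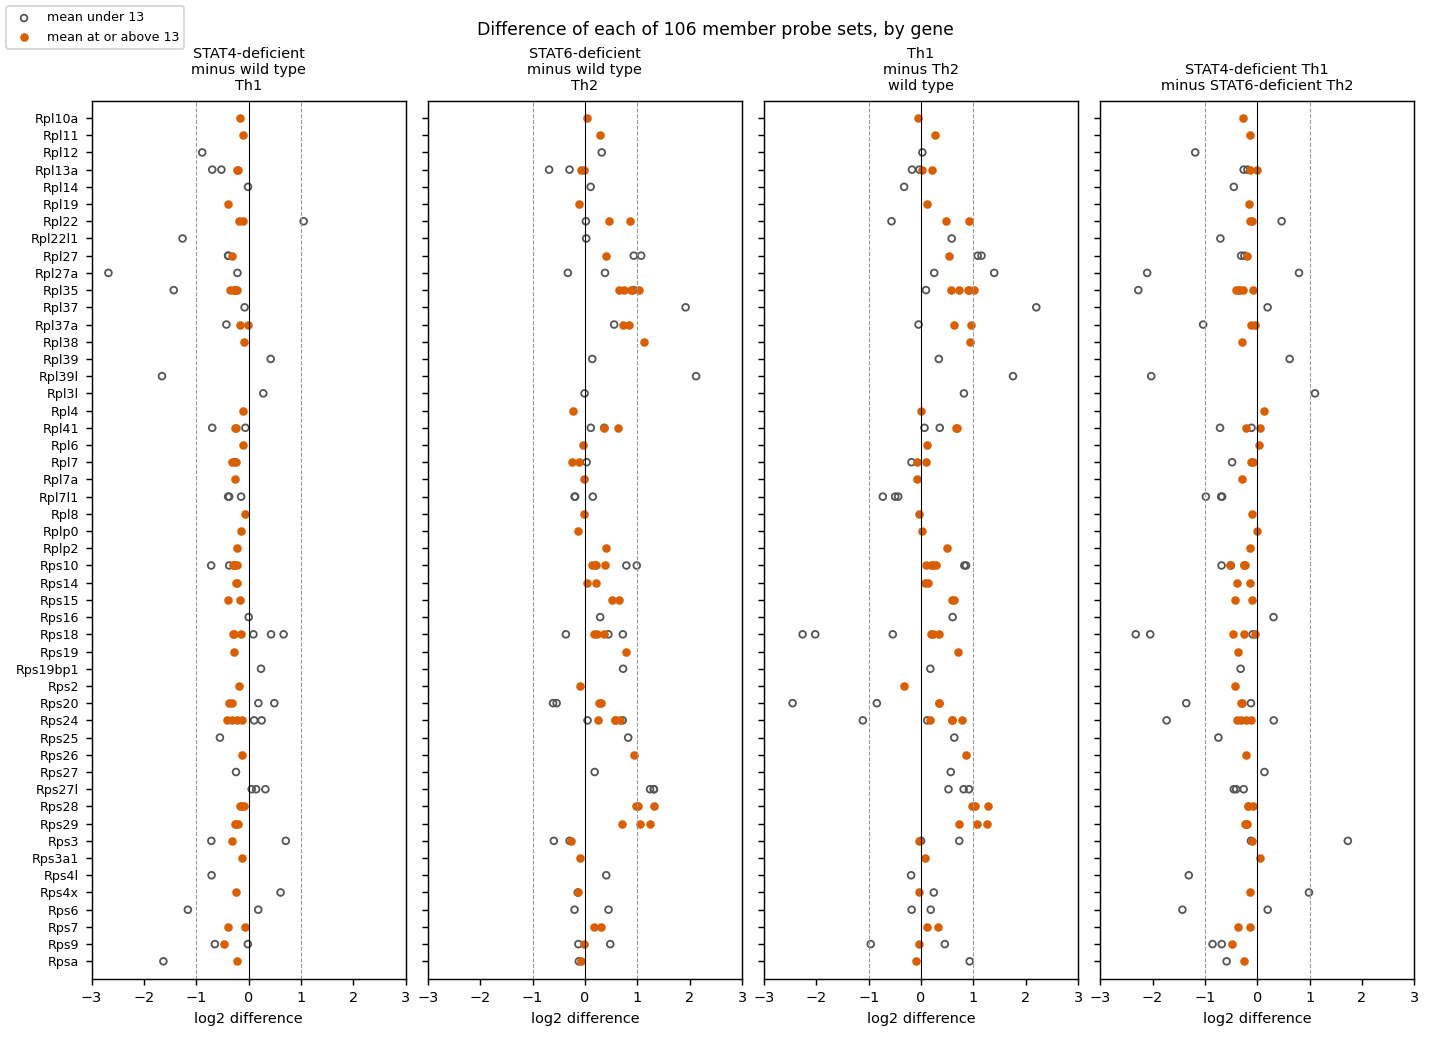
Log2 difference (horizontal axis) of each of the 106 member probe sets in the 4 comparisons, by gene. Filled points are probe sets with a mean at or above 13, open points are dimmer ones, and dashed lines mark 2-fold. In the STAT6 panel 43 of the 59 bright probe sets lie above 0. In the STAT4 panel all 59 lie below 0, none of them past 2-fold. Of 150 other probe sets this bright (not drawn), 61 were above 0 for STAT6 and 132 below 0 for STAT4.

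Bright probe sets of other genes were set beside the bright members. The level of 13 for this split was chosen after the values were seen. The 59 members at or above it had a median STAT6 difference of 0.30, and 6 of them (10.2%) were higher and none lower. The 150 other probe sets at that level had a median of −0.11, with 4.67% higher and 6.0% lower (10.7% in all). In the STAT4 comparison the median was −0.23 for the bright members, of which none was called, and −0.35 for the bright others, of which 4.67% were called. Between the wild types 5 of the 59 were called against 6.67% of the others, with medians of 0.33 and −0.02. The actin control, a measure of RNA quality, read 2.08 log2 units more at its 3′ than at its 5′ end on the array without STAT6. The gap was 0.85 for wild type Th2 cells, 0.66 for Th1 cells without STAT4 and 0.32 for wild type Th1 cells. The part of RNA quality in the STAT6 differences was not tested. Nor was that of the summed markers of other cell types, which were lower on that array than in wild type Th2 cells (9.36 against 10.67).

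Promoter sequences are shown for some of the genes with a probe set called higher without STAT6 (Rpl37, Rpl38, Rpl27, Rps28, Rps27l, Rpl39l). They are also shown for Rpl22l1, which differed without STAT4, and for the steady genes Rplp0 and Rpl4. Rpl35, also called without STAT6, is not shown. Each is the 100 bases before the annotated start (RefSeq, GRCm38.p6), from 5′ to 3′ on the gene's strand. Capitals mark CCGGAA, the core of sites for ETS factors, GGGCGG, the GC box that Sp1 binds, and TATAAA, on either strand. Matches of 1 motif may overlap each other, as the 2 TATAAA matches of Rpl22l1 do. Rps29 is named only.
Rpl37 (chr15:5116513-5116612, plus strand): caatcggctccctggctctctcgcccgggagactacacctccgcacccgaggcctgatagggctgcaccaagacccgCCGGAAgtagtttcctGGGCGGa
Rpl38 (chr11:114668480-114668579, plus strand): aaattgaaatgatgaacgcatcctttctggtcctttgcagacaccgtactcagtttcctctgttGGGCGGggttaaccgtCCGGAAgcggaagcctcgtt
Rpl27 (chr11:101442145-101442244, plus strand): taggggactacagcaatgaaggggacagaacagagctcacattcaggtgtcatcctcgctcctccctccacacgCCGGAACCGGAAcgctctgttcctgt
Rps28 (chr17:33824563-33824662, minus strand): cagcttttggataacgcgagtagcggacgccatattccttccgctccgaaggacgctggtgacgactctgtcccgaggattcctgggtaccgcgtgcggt
Rps27l (chr9:66945986-66946085, plus strand): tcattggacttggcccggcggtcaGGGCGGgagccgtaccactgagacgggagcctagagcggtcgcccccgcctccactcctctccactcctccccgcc
Rpl39l (chr16:10170128-10170227, plus strand): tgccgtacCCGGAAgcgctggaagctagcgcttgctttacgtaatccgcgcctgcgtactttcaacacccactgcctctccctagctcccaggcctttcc
Rpl22l1 (chr3:28805408-28805507, plus strand): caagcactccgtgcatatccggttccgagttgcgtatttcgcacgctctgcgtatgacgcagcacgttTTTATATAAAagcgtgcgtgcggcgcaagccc
Rplp0 (chr5:115559367-115559466, plus strand): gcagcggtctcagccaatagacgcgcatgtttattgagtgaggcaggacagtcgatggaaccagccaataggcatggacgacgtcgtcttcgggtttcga
Rpl4 (chr9:64173287-64173386, plus strand): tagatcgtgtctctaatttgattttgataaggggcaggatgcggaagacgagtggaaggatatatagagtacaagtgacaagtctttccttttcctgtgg
Rps27l has a further annotated start, not shown, whose 100 bases hold no match. In the 250 bases before the start, CCGGAA was found in 22 of 52 promoters of member genes (42.3%), against 12.03% of all 32851 promoters. Each annotated start counts as its own promoter, so some genes count more than 1 time, and Rps19bp1 is included. GGGCGG was found in 46.2% against 32.7%, and TATAAA in 7.69% against 12.4%. Within the bases shown, Rpl37 and Rpl38 hold CCGGAA and GGGCGG, Rpl27 holds 2 copies of CCGGAA in a row and Rps28 holds none of the 3. Rplp0 and Rpl4 hold none either. Other genes near wild type without STAT6 do hold CCGGAA in their 100 bases, among them Rpsa (−0.07) and Rps3a1 (−0.10). Whether the motif is more frequent among the members that differed than among the steady ones was not tested. A match is a description of the letters and not a bound site.

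The wild type comparison shares the Th2 wild type array with the STAT6 comparison and the Th1 wild type array with the STAT4 comparison, so its values do not stand apart from those above. Of 100 members at the level minimum 9 (9.0%) were higher in Th1 and 4 (4.0%) higher in Th2 cells, against 9.24% and 24.2% of all probe sets. The split depended on the scaling, with 2 higher and 7 lower when the arrays were centred on the hybridization controls and 12 higher and 3 lower after quantile normalization. At 1.5-fold 30 were higher and 7 lower, 37.0% in all against 56.8%. The median member difference was 0.26, against −0.06. The genes higher in Th1 cells were Rpl37 (2.20), Rpl39l (1.75), Rps28 (1.27 and 1.03), Rps29 (1.26 and 1.06), Rpl27 (1.15 and 1.08) and, on 1 of 6 probe sets, Rpl35 (1.02). No bright member was called higher in Th2 cells. With the arrays centred on the hybridization controls the member median was −0.12, below 0, against −0.44 over all probe sets.

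All 4 members that were higher in Th2 cells were dimmer probe sets of genes whose bright probe sets had differences above 0. Rps18, whose protein lies in the head of the small subunit, had 2 of them. The first read 4.19 with and 4.86 without STAT4 in Th1 cells, and 6.45 with and 7.18 without STAT6 in Th2 cells, and the second 4.69, 5.11, 6.71 and 7.16. Both Th2 arrays were above both Th1 arrays. A probe set of Rps20 read 4.54, 5.03, 7.00 and 6.39, and one of Rps24 read 7.55, 7.65, 8.66 and 9.39. The bright probe sets differed between the wild types by 0.19 to 0.33 for Rps18, by 0.33 and 0.34 for Rps20 and by 0.16 to 0.78 for Rps24. What transcript the dim probe sets detect is not known here. Those of Rps18 and this one of Rps20 reached the level minimum on the Th2 arrays alone, so they had to differ in order to be counted.

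Without STAT4, Th1 cells had lower signal for 4 member probe sets and higher signal for 1, of 97 at the level minimum. The 4.12% and 1.03% stand beside 5.75% lower and 6.69% higher among all probe sets. At 1.5-fold 3 were higher and 11 lower, 14.4% in all against 33.2%. The median difference was −0.23, against 0.17 over all probe sets, and 89 of 106 members were below 0. The direction of the median turned with the scaling of the arrays. It was 0.01 after quantile normalization, 0.11 after cyclic loess and 0.16 when the arrays were centred on the hybridization controls, and −0.47 after median centring. The medians over all probe sets were 0.02, 0.003, 0.55 and −0.07 in the same order. Relative to all probe sets, the member median thus stayed at −0.39 under both centrings, as in the deposited values. It was −0.01 after quantile normalization and 0.11 after cyclic loess. The calls split into 0 higher and 5 lower after median centring and into 2 higher and 3 lower with hybridization control centring.

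Rpl22l1 encodes a paralog of the large subunit protein Rpl22. It read 12.62 with and 11.36 without STAT4 in Th1 cells, and 12.04 with and 12.06 without STAT6 in Th2 cells. The STAT4-deficient array was the low one, 2.4-fold below its wild type, and the Th2 arrays differed by 0.02. The call held under 2 of the 4 other scalings. Rpl22, a gene needed for the development of mouse αβ T cells, read 14.27, 14.15, 13.80 and 14.26 on its brightest probe set. A dimmer Rpl22 probe set read 8.75, 9.80, 9.31 and 9.33 and was the member that was higher without STAT4 (1.05). The remaining Rpl22 probe set differed by −0.19 there.

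The largest STAT4 difference was that of a Rpl27a probe set, at 10.03 with and 7.35 without STAT4 in Th1 cells, and 9.78 with and 9.45 without STAT6 in Th2 cells. The 6.4-fold difference sets the STAT4-deficient array apart from the other 3. The second Rpl27a probe set did not reach the level minimum and differed by −0.22. For Rpl35, 1 dim probe set read 7.90, 6.47, 7.80 and 8.74, a STAT4 difference of −1.43, whereas the other 5 differed by −0.36 to −0.23. No small subunit probe set was called in the STAT4 comparison. The dim probe sets of Rpsa (−1.63) and Rps6 (−1.16) differed by more than 2-fold below the level minimum. On its brighter probe set Rps6, the protein that S6 kinases phosphorylate, differed by 0.18.

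**Figure D3:**
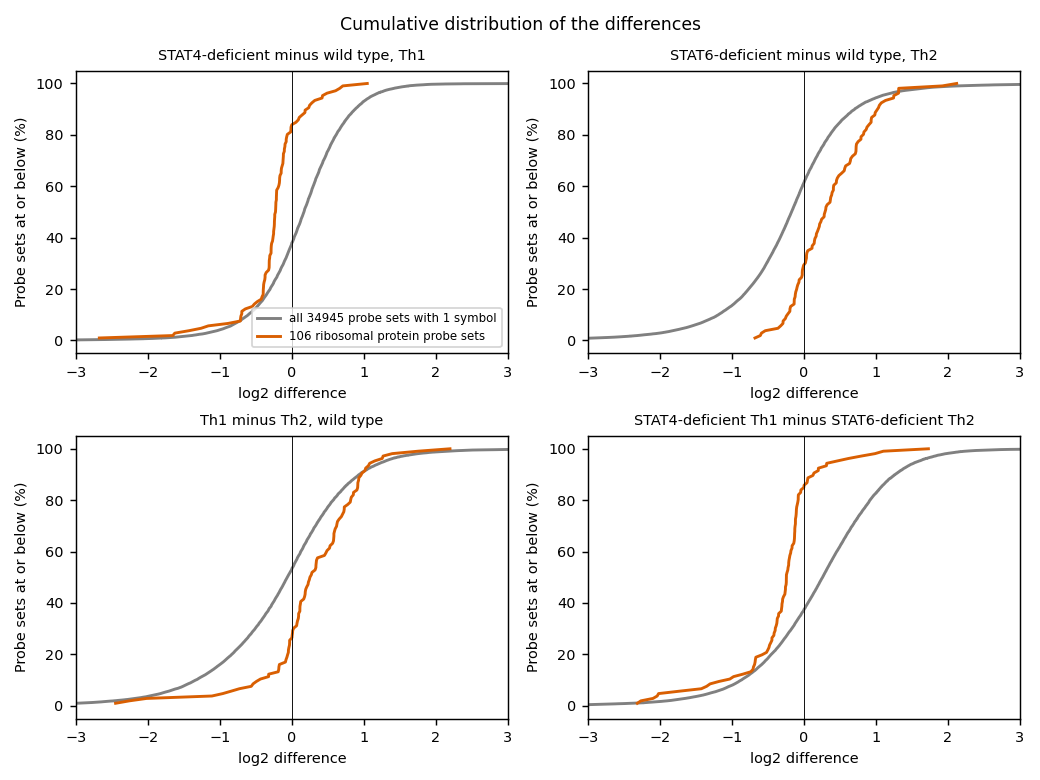
Share of probe sets (vertical axis, percent) with a log2 difference at or below the value on the horizontal axis, for the 106 members (orange) and all 34945 probe sets with a single symbol (grey). The member curve lies to the right of the grey one through most of the STAT6 and wild type panels, where the member medians are 0.30 and 0.26, and to its left through most of the panels with the STAT4-deficient array.

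Of 8 genes listed as variants of ribosomal proteins 6 were measured. Rpl39l, a variant of Rpl39 known from testis, read 7.00 with and 5.34 without STAT4 in Th1 cells, and 5.24 with and 7.36 without STAT6 in Th2 cells. It was thus 3.15-fold lower without STAT4 and 4.35-fold higher without STAT6, and both arrays at about 5 were under the level minimum. Its partner Rpl39 read 7.35, 7.76, 7.01 and 7.15. Rps27l, a variant of Rps27 and a target of p53, read 12.17, 12.48, 11.64 and 12.89 on its brightest probe set. The Th2 wild type value was the lowest and the STAT6-deficient one the highest. Its 3 probe sets were all higher without STAT6 (1.24, 1.32 and 1.32) and differed by 0.06 to 0.32 without STAT4. The Rps27 probe set differed by 0.19 and −0.24 in the same 2 comparisons. Rpl7l1, which takes part in ribosome assembly, had no call in any comparison, and its 3 probe sets read 0.44 to 0.73 lower in Th1 than in Th2 wild type cells. Rps4l read 5.82, 5.11, 6.01 and 6.42. Rps19bp1 read 9.86, 10.09, 9.68 and 10.41 and was not called.

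The knockouts were set beside each other as Th1 STAT4-deficient minus Th2 STAT6-deficient, which uses the knockout arrays of the first 2 comparisons. Of 101 members at the level minimum 11 (10.9%) were lower and 1 (0.99%) higher in the Th1 cells, against 11.7% and 15.5% of all probe sets. At 1.5-fold 3 were higher and 20 lower, 22.8% in all against 51.2%. The median member difference was −0.25, against 0.26. The lower members were probe sets of Rps18 (−2.32 and −2.04), Rpl35 (−2.27), Rpl27a (−2.10), Rpl39l (−2.02), Rps24 (−1.73), Rps6 (−1.43), Rps20 (−1.36), Rps4l (−1.31), Rpl12 (−1.18) and Rpl37a (−1.03). The higher one was a probe set of Rps3, which encodes a protein at the entry of the messenger RNA channel. It read 6.05 against 4.32, while the brightest Rps3 probe set differed by −0.10. Of these 12 calls 7 reached the level minimum on 1 of the 2 arrays alone and so had to differ in order to be counted: those of Rps18, Rps20, Rpl39l, Rps6, Rps4l and Rps3. None of the 59 bright members was called, against 5.33% of the 150 other bright probe sets. The medians of these sets were close, at −0.20 for the bright members and −0.23 for the bright others.

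Taken by 1 probe set per gene, 48 member genes reached the level minimum in each comparison. Without STAT4, 3 were called (6.25%, against 11.5% of all genes), all of them lower, where 5.34% of all genes were lower. Without STAT6, 6 were called (12.5% against 26.5%), all of them higher. Of all genes 7.01% were higher and 19.5% lower there. In the other 2 comparisons 4 genes were called (8.33%), against 33.5% of all genes for the wild types and 22.9% for the knockouts. Those of the wild types were all higher in Th1 cells, against 8.14% of all genes higher and 25.4% lower. Those of the knockouts were all lower, where 1290 of 12582 genes were lower. Probe sets of 1 gene did not always give the same difference. Of 24 genes with several probe sets, all probe sets had the same sign in 17 for the STAT4 comparison, 17 for the STAT6 comparison, 12 for the wild types and 17 for the knockouts. They lay at least 1 log2 unit apart in 6, 1, 8 and 8 genes. The widest spread was that of Rpl27a between the knockouts, from −2.10 to 0.80. In the wild type comparison the 3 probe sets of Rpl37a ran from −0.05 to 0.96 and those of Rps9 from −0.96 to 0.45, and between the knockouts those of Rps4x ran from −0.14 to 0.99.

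A further 110 probe sets carried several symbols of which at least 1 met the rule, mostly a ribosomal protein gene and its pseudogene copies, and were not members. Their median difference was −0.20 for STAT4, 0.27 for STAT6, 0.37 for the wild types and −0.14 for the knockouts. Of 89 protein-coding RefSeq symbols that meet the rule, 49 had a member probe set and 31 were on such shared probe sets alone. The others were not analysed here. Even a member with a single symbol can share sequence with pseudogenes, and 40 members carry the array's suffix for probes that may match other transcripts.

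**Figure D4:**
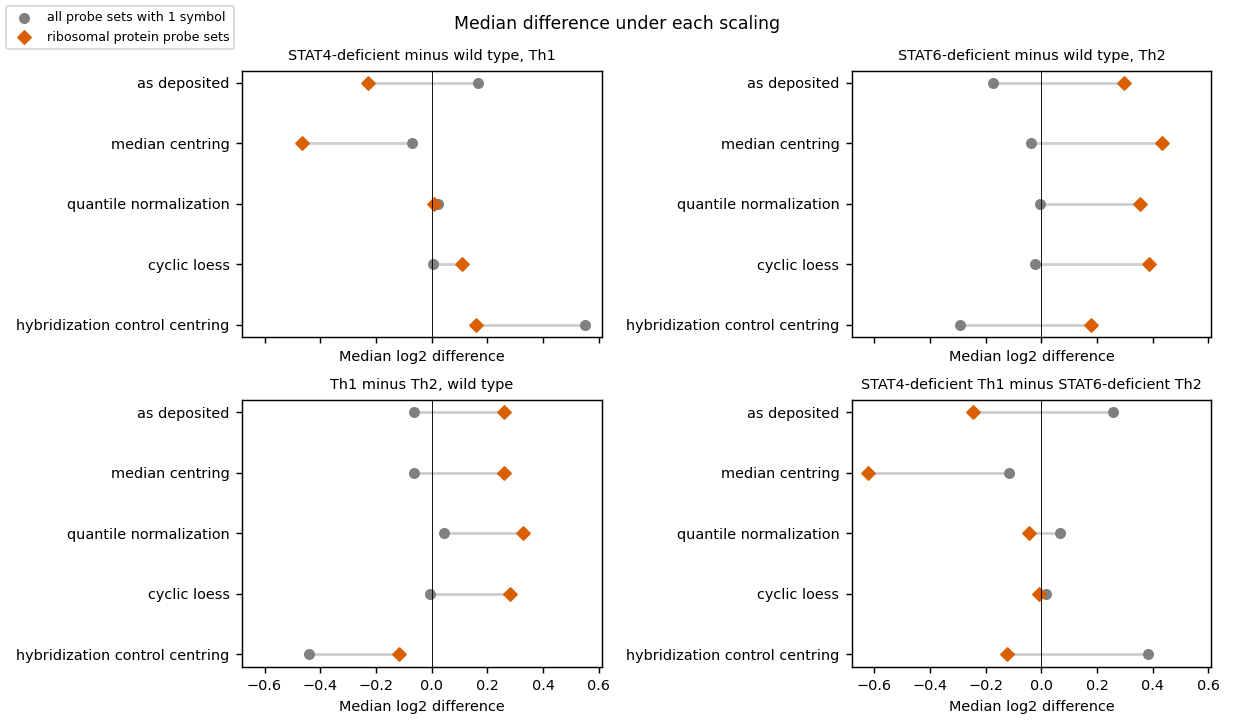
Median log2 difference (horizontal axis) of the 106 members (orange diamonds) and of all 34945 probe sets with a single symbol (grey circles), for the values as deposited and 4 other scalings, in each comparison. The STAT6 median of the members stays between 0.18 and 0.43, whereas the STAT4 median runs from −0.47 to 0.16.

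Other parts of the protein synthesis machinery, were described by gene lists with 1 probe set per gene. On that scale the median of the 50 member genes was −0.22 for STAT4, 0.18 for STAT6, 0.23 for the wild types and −0.21 for the knockouts, beside 0.17, −0.19, −0.10 and 0.21 for all genes. The 76 mitochondrial ribosomal protein genes had medians of 0.19, 0.05, −0.66 and −0.46. Of these genes 19 were higher in Th2 than in Th1 wild type cells and 1, Mrpl52, was lower, against 25.4% and 8.14% of all genes. Mrps27 (−2.01) and Mrpl49 (−1.88) led them.

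Of 55 ribosome assembly genes 5 were higher and 1 lower without STAT6, against 7.01% and 19.5% of all genes, with a median of 0.36. Nop10 (1.71), a protein of the pseudouridine-forming particles, Utp20 (1.31) and Tcof1 (1.22) were among the higher ones, and Nop58, a core protein of the methylating particles, was the lower one (−1.65). Of 12 genes of RNA polymerase I, which makes ribosomal RNA, Taf1c was higher (1.11) and Taf1b lower (−1.31), and the median was 0.54. The median was −0.10 for 28 initiation factors, of which Eif1b was lower (−1.20). It was −0.07 for 19 other genes with TOP messenger RNAs, where Hnrnpa1 was higher (1.06) and Vim lower (−1.49).

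Of 21 growth control genes 1 was higher and 3 were lower without STAT6, with a median of −0.40. Myc, a transcription factor that drives ribosome production, read 13.45 with and 12.88 without STAT4 in Th1 cells, and 12.16 with and 13.35 without STAT6 in Th2 cells. The Th2 wild type array was the lowest for Myc, as it was for 46.0% of the 50 member genes and 22.3% of all genes. A link between Myc and the member genes was not tested. Ddit4, an inhibitor of mTOR, was lower (−2.66), as were Rps6kb2 (−1.34), which encodes an S6 kinase, and Eif4ebp1 (−1.21), a repressor of initiation that mTOR switches off. Without STAT4, 2 growth control genes were lower, the mTOR activator Rheb (−1.30) and the p53 antagonist Mdm2 (−1.18). Of all genes 6.18% were higher and 5.34% lower there. Of the other lists, 1 of 55 assembly genes (Utp20, 1.16), 1 of 12 polymerase I genes (Ubtf, 1.03) and 1 of 28 initiation factors (Eif2b3, 1.54) were higher, and 1 of 19 other TOP genes (Vim, −1.11) was lower. Of the mitochondrial ribosomal protein genes Mrpl37 (1.17) was higher and Mrpl33 (−1.02) lower.

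**Figure D5:**
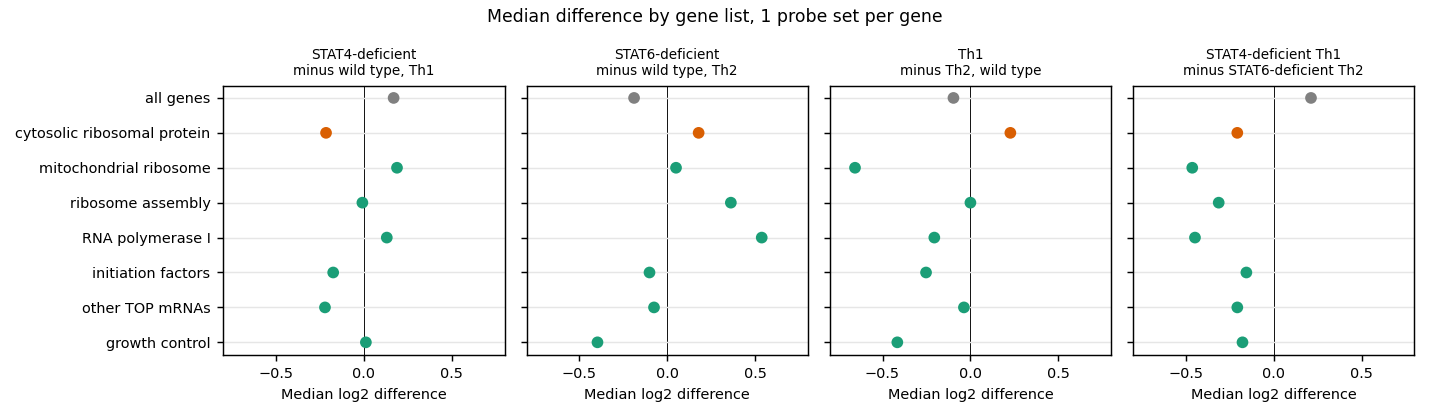
Median log2 difference (horizontal axis) of each gene list in the 4 comparisons, with 1 probe set per gene, beside all genes (grey) and the 50 member genes (orange). Between the wild types, as deposited, the cytosolic ribosomal protein genes stand at 0.23 and the mitochondrial ones at −0.66. The first of these signs depends on the scaling. With hybridization control centring the median of the 106 probe sets was −0.12, against −0.44 over all probe sets.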

How the data were processed

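Gene expression was measured on 4 Affymetrix mouse arrays, 1 per group, and the authors' deposited values are log2 signals per probe set made with RMA, as the submitters' processing notes say, with no version. Whether the arrays were normalized together and the genome build are not given in the sources used here. The deposited values did not share 1 distribution. Outside the controls the array medians were 5.77, 6.01, 5.77 and 5.63, and the 75th percentiles 7.53, 7.63, 8.10 and 7.79. The order is wild type Th1, Th1 without STAT4, wild type Th2 and Th2 without STAT6. Differences as deposited include these offsets. Of 45101 probe sets, 64 were controls, 932 had several genes and 9160 had none in the platform annotation. The members and gene lists were chosen with earlier results of these data known.

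Differences of the deposited log2 values were taken between single arrays, with no test. A call needed a 2-fold difference and a level of 5.82. The rule for named members took those called in any comparison, the 4 at either end of each, the 5 genes with the highest and lowest mean, genes whose probe sets lie 1 log2 unit apart, and variants, stalk proteins and their partners. Of the other lists it took at most 4 called genes per comparison. Not all of these are named, and members named outside the rule were chosen after their values were seen. Of 274 genes on 17 lists, those without a probe set are not counted. The alternatives were 4 scalings (median centring, quantile normalization and cyclic loess with limma 3.58.1, and centring on 18 hybridization control probe sets), other limits and other choices of probe set. The calling step was run on simulated arrays with planted changes beyond the limit and little noise. This checks the code and gives no error rate for single arrays. Python 3.11.15, pandas 2.3.3 and numpy 2.4.6 were used. Promoters came from a RefSeq table of GRCm38.p6.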

Additional observations from a re-analysis of the deposited data

Results flagged for a closer look

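Rpl39l differed in opposite directions in the 2 losses, by −1.66 without STAT4 and by 2.12 without STAT6. With 1 array per group the difference between the losses was not tested. Rpl39l had a single probe set, and its lower value in each comparison lay under the level minimum. Both calls held under the 4 other scalings.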

How the results depend on the processing

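No paired analysis was possible because each group has 1 array. Leaving out a replicate was not possible for the same reason. The direction of the STAT6 median held under all alternatives run. The STAT4 median turned to 0.00912 after quantile normalization, 0.11 after cyclic loess and 0.16 with hybridization control centring, and the wild type median to −0.12 with hybridization control centring. Relative to all probe sets, the member medians stayed at −0.39 for STAT4 and 0.32 for the wild types under both centrings. Other medians moved by over 0.1. Median centring gave −0.47 for STAT4, 0.43 for STAT6 and −0.62 for the knockouts. The knockout median became −0.04608 after quantile normalization, −0.00771 after cyclic loess and −0.12 with hybridization control centring. The STAT6 median became 0.18 with hybridization control centring and 0.18 with the highest probe set per gene. Over plain probe sets, those whose names carry no suffix, it became 0.15, and the wild type median 0.12. The number of called members moved by over 1.5 times as follows, in the order STAT4, STAT6, wild types and knockouts where all 4 moved. A 1.5-fold limit gave 14, 37, 37 and 23 calls, the highest probe set per gene 3, 6, 4 and 4, the median of a gene's probe sets 3, 5, 3 and 3, and members with a mean of at least 13 gave 0, 6, 5 and 0. Plain probe sets gave 3, 1 and 3 for the first 3, which leaves most STAT6 and wild type calls on probe sets with a suffix. With shared probe sets there were 29, 31 and 20 calls for the last 3. The level of 13 and the shared probe sets were alternatives chosen after the data were seen. Median centring gave 19 for STAT6 and 21 for the knockouts, and quantile normalization 20 for STAT6. Core subunits alone gave 3 for STAT4, and a level minimum at the 75th percentile gave 5 for the knockouts. Smaller sets of probe sets hold fewer calls by construction, and otherwise the cause was not tested. Of the called probe sets 3 of 5, 8 of 12, 5 of 13 and 9 of 12 kept their call under all 4 other scalings, and none reversed. The highest signals on an array were near 15, so a rise of the brightest members may not show in full, which was not tested.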
